A study of Homo sapiens with 6 samples.

Results

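The genes described here encode the proteins of basement membranes and of the surrounding matrix: the collagen chains, the laminin chains, the linkers HSPG2, NID1, NID2 and AGRN, fibronectin (FN1) and matrilin 3 (MATN3). They were chosen by name, as protein-coding genes whose symbol is COL, digits, A, digits, or LAMA, LAMB or LAMC with a digit, or 1 of the 6 other symbols. The rule found 62 of the 60564 genes in the table, and 37 of them had enough counts to be tested. Transcripts were counted by RNA sequencing in 6 libraries of HepG2, a hepatocyte-like cell line derived from human liver cancer. In 3 libraries the cells had received formononetin, a methoxylated isoflavone found in clover and astragalus, at a labelled dose of 625 (unit written μm) for 72 h. The labels of the 3 control libraries give the culture medium DMEM alone, with no solvent control and no culture time.

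Basement membranes are thin sheets under epithelia and around vessels. Laminin trimers of an alpha, a beta and a gamma chain polymerise at the cell surface, type IV collagen forms another network, and nidogen, perlecan and agrin tie them together. Fibronectin, which hepatocytes also secrete into plasma, forms fibrils that integrins assemble. Fibrillar collagens give tissue its tensile strength, and in liver types I and III come mainly from stellate cells and fibroblasts rather than hepatocytes.

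Transcripts of these matrix genes were mostly lower with formononetin. Lowered genes included FN1, MATN3, the type IV chains COL4A5 and COL4A6, the laminin chains LAMB1, LAMB2 and LAMC1, perlecan, nidogen 1 and the type IX, XVI, XVIII and XXVII collagens. Of the 37 tested genes, 19 were lowered, 1 was raised and 17 were not called, at a Benjamini-Hochberg adjusted p under 0.05 over all 22230 genes tested with edgeR's quasi-likelihood method in 3 libraries against 3. Among all genes tested, 8.71% were lowered and 12.0% raised. With upper quartile scaling the split over all genes was 1813 raised and 2737 lowered, in place of 2659 and 1937, and 20 of the 37 matrix genes were lowered. The median log2 fold change was -0.29 over the 37 genes and -0.01 over all genes tested. Of the 37 tested genes 5 were called with a change of 2-fold or more, against 2.63% of all genes tested, and 1 of the 5, LAMC3, passed the filter only through the group where it is high. All 3 formononetin libraries lay below all 3 controls for 20 of the 37 genes, against 18.7% of all genes tested, and above them for 1, against 20.8%. The counts describe the genes that passed a low-count filter and not the whole set.

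Calls depend on depth, and abundant genes are called more often. Among the 20 tested genes with a mean of 5 CPM or more in either group (counts per 1000000, on library sizes scaled by the TMM method), 15 were lowered, 0 were raised and 5 were not called. Among all tested genes at that level 12.5% were lowered and 20.2% raised. With exons of 5000 bases or more in addition, 12 of 16 matrix genes were lowered, against 14.1% of all genes of that level and length. Of the 17 tested genes under 5 CPM, 4 were lowered, 1 was raised and 12 were not called. Among tested genes of every level 8.71% were lowered and 12.0% raised, and the shares for genes under 5 CPM alone were not computed. Libraries held 30848848 to 45682722 counts on named genes, more in every formononetin library than in any control. In RNA from whole cultures, fewer cells of a kind and less RNA per cell cannot be told apart.

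**Figure D1:**
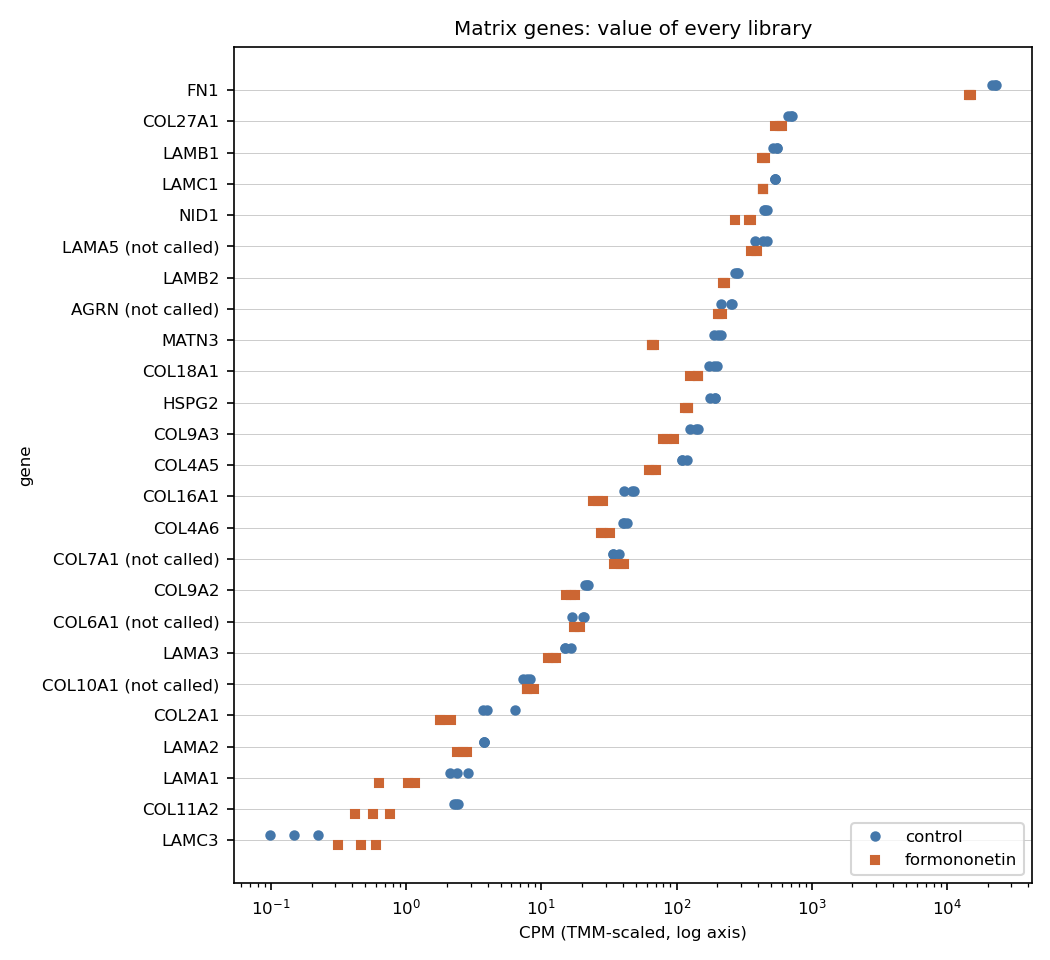
Value of every library for the 25 matrix genes that were called or had a mean of 5 CPM or more, on a log axis of CPM, with the 3 control and the 3 formononetin libraries as separate points. For FN1 the formononetin libraries lie between 14529 and 15165 CPM and the controls between 21514 and 22955 CPM.

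FN1 (ENSG00000115414, chromosome 2, 215360440 to 215436172, minus strand, GRCh38) carried most of the matrix signal. It took 81.6 to 85.0% of the summed CPM of the 62 genes and ranked 2 by counts among all genes in every library except formononetin replicate 3, where it ranked 4. FN1 was at 21514, 22955 and 22616 CPM in control and 14893, 14529 and 15165 CPM in formononetin libraries. The groups did not overlap, and libraries within a group were close. The mean went from 22362 ± 754 to 14863 ± 319 CPM (SD, n = 3), a log2 fold change of -0.59 ± 0.04 (standard error, adjusted p = 0.000213). FN1 held 2.12 to 2.27% of all counts on named genes in control and 1.48 to 1.54% in formononetin libraries. The other 61 genes together summed to 4057 to 4281 CPM in control and 3062 to 3366 CPM in formononetin libraries.

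Promoter sequences are shown for the lowered genes FN1, MATN3 and HSPG2, each of which has a single RefSeq start in the table used. Each is the 250 bases before that start (GRCh38.p14), 5′ to 3′ on the gene's strand. Capitals mark matches, on either strand, to the cyclic AMP response element TGACGTCA, the CCAAT box CCAAT, the GC box GGGCGG and TATAA, and neighbouring GC boxes may overlap. The FN1 stretch is chr2:215436069-215436318 (minus strand), the MATN3 stretch chr2:20012669-20012918 (minus strand) and the HSPG2 stretch chr1:21937311-21937560 (minus strand).
FN1: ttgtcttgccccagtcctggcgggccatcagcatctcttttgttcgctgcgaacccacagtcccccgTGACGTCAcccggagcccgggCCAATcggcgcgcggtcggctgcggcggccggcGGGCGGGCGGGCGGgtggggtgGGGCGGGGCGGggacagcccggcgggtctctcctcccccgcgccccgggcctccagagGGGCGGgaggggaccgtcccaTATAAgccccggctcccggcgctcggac
MATN3: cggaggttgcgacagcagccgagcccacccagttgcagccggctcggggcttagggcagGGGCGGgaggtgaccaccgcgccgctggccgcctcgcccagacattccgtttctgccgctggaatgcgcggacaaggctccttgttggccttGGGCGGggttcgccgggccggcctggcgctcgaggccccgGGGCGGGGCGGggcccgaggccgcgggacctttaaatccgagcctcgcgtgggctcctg
HSPG2: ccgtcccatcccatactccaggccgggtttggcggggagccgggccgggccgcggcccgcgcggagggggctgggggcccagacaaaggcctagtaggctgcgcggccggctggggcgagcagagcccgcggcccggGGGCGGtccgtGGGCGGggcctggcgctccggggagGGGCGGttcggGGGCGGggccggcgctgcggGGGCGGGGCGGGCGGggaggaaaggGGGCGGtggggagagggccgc

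The FN1 promoter held 1 response element 183 bases before the start, 1 CCAAT box at 162 bases, 6 GC boxes and 1 TATAA at 28 bases. The MATN3 and HSPG2 stretches held 4 and 8 GC boxes and none of the other motifs. RefSeq promoters were at hand for 16 of the 19 lowered genes, and a gene with several starts was counted if any of them held the motif. The response element stood in 1 of the 16, against 3.27% of tested genes with a promoter sequence, and the CCAAT box in 5 against 40.7%. The GC box stood in 14 against 69.8%, and TATAA in 3 against 15.6%. Over all 35116 promoters of this length the shares were 1.65, 32.0, 42.6 and 18.9% in the same order. A match describes letters only.

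Laminin transcript in HepG2 came almost wholly from LAMA5, LAMB1, LAMB2 and LAMC1. Per kilobase of exon, control libraries averaged 66.5 CPM of LAMB1, 63.5 of LAMC1, 40.6 of LAMB2 and 29.9 of LAMA5, and the next chain, LAMA3, had 1.06. LAMA5 made up 94.9 ± 0.684% in control and 95.9 ± 0.454% in formononetin libraries of alpha-chain signal per kilobase (n = 3), and these ranges overlapped (exact permutation p = 0.2, two-sided). LAMC1 made up nearly all gamma-chain signal. Of 12 laminin genes 9 were tested, of which 6 were lowered and 1 was raised. The shares among all genes tested were 8.71% lowered and 12.0% raised.

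LAMC1, the common gamma chain (ENSG00000135862, chromosome 1, 183023460 to 183145592, plus strand), was at 531, 538 and 534 CPM in control and 438, 435 and 437 CPM in formononetin libraries. The libraries of each group lay within a few CPM of each other, and the log2 fold change was -0.29 ± 0.03 (adjusted p = 0.00125). LAMB1, the widespread beta chain (ENSG00000091136, chromosome 7, 107923799 to 108003255, minus strand), was at 519.6, 552 and 551 against 455, 440.3 and 429 CPM (-0.29 ± 0.04, adjusted p = 0.00363). LAMB2, the beta chain of muscle and kidney laminins (ENSG00000172037, chromosome 3, 49121114 to 49133118, minus strand), was at 285, 272 and 279 against 228, 224 and 220.4 CPM (-0.31 ± 0.04, adjusted p = 0.0017). The means of these 3 chains were 81.7, 81.6 and 80.5% of control for LAMC1, LAMB1 and LAMB2, and no library of 1 group reached the other. LAMA5, an alpha chain that pairs with them (ENSG00000130702, chromosome 20, 62307955 to 62367312, minus strand), was at 467, 379 and 434 against 390.2, 391 and 358 CPM. Its groups overlapped through control replicate 2, and its change of -0.17 ± 0.08 was not called (adjusted p = 0.188). Without control replicate 2 LAMA5 was called (adjusted p = 0.0413), and ADRM1 overlaps it on the opposite strand by 244 exon bases.

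Of the scarcer alpha chains, LAMA1, LAMA2 and LAMA3 were lowered, and LAMA4 had too few counts to test. LAMA1, the chain of early embryonic basement membranes, was at 2.37, 2.12 and 2.86 CPM in control and 1.17, 0.629 and 1.04 CPM in formononetin libraries (-1.37 ± 0.25, adjusted p = 0.00941). LAMA2, the muscle chain, was at 3.75, 3.80 and 3.75 against 2.83, 2.36 and 2.65 CPM (-0.53 ± 0.13, adjusted p = 0.0274). LAMA3, the chain of epidermal anchoring laminins, was at 15.0, 16.7 and 14.9 against 12.2, 11.2 and 12.8 CPM (-0.37 ± 0.09, adjusted p = 0.0288). None of the 3 overlapped between groups, beside 18.7% of all genes tested that lay wholly below control. The calls of LAMA2 and LAMA3 were lost with a replicate block, without a low-count filter and when any control library was left out. LAMA2 was also not called when formononetin replicate 2 or 3 was left out, nor LAMA3 when formononetin replicate 1 or 2 was, with adjusted p of at most 0.0869 and 0.0924.

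LAMC3, a further gamma chain, was the single raised gene and rested on few counts. It had 3, 8 and 5 counts in control and 24, 12 and 21 in formononetin libraries, or 0.157 ± 0.0629 against 0.458 ± 0.141 CPM (n = 3). It passed the low-count filter only through the formononetin libraries. The log2 fold change was 1.51 ± 0.43 (adjusted p = 0.0445), and leaving out any library ended the call (adjusted p 0.0535 to 0.142). LAMB3, the beta chain that pairs with LAMA3, was at 0.632 ± 0.187 against 0.635 ± 0.303 CPM and was not called.

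**Figure D2:**
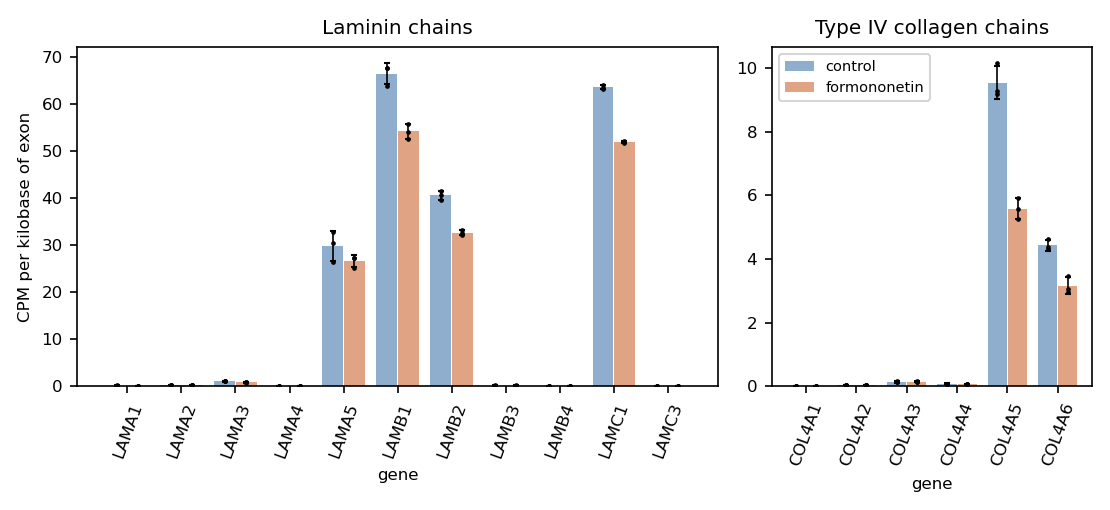
Mean CPM per kilobase of exon for 11 laminin chains and the 6 type IV collagen chains, with SD bars over 3 libraries per group and a dot for each library. LAMB1, LAMB2, LAMC1, COL4A5 and COL4A6 are lower in the formononetin libraries without overlap, and LAMA5 overlaps.

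Among the linkers, perlecan and nidogen 1 were lowered while agrin was not called. HSPG2, which encodes the heparan sulfate proteoglycan perlecan (ENSG00000142798, chromosome 1, 21822245 to 21937297, minus strand), was at 193, 176 and 194 CPM in control and 122, 121 and 115 CPM in formononetin libraries. Every formononetin library was below the lowest control, and the log2 fold change was -0.66 ± 0.05 (adjusted p = 0.000423). NID1, which joins laminin to type IV collagen (ENSG00000116962, chromosome 1, 235975830 to 236065162, minus strand), was at 468, 443 and 448 against 356, 345 and 271 CPM. Formononetin replicate 3 was the lowest, and the change was -0.48 ± 0.10 (adjusted p = 0.0136). AGRN, a proteoglycan best known from the neuromuscular junction (ENSG00000188157, chromosome 1, 1020123 to 1056118, plus strand), was at 255, 214 and 252 against 218, 207 and 202 CPM. Its groups overlapped through control replicate 2, and the change of -0.20 ± 0.07 was not called (adjusted p = 0.0963). AGRN was called without control replicate 2 (adjusted p = 0.0166) and under upper quartile scaling (adjusted p = 0.0349). NID2, the other nidogen, was at 0.316 ± 0.123 against 0.323 ± 0.0684 CPM and was not called, with RTRAF on the opposite strand over 1915 exon bases.

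Type IV collagen transcript in these libraries came mainly from COL4A5 and COL4A6, whose chains form a network known from smooth muscle and kidney. The usual pair of most basement membranes, COL4A1 and COL4A2, was scarce. COL4A5 (ENSG00000188153, chromosome X, 108439844 to 108697545, plus strand) was at 109, 110.1 and 120.4 CPM in control and 70.1, 62.4 and 66.0 CPM in formononetin libraries. COL4A6 (ENSG00000197565, chromosome X, 108155607 to 108439497, minus strand) was at 39.9, 43.0 and 40.6 against 32.3, 27.5 and 28.4 CPM. Neither gene overlapped between groups, and the log2 fold changes were -0.77 ± 0.06 and -0.49 ± 0.08 (adjusted p = 0.000437 and 0.005). Per kilobase of exon, COL4A6 made up 31.2 ± 1.53% in control and 35.2 ± 0.768% in formononetin libraries of type IV signal (n = 3), and COL4A5 67.0 ± 1.65% in control and 62.1 ± 0.82% in formononetin libraries. Both shares separated the groups (exact permutation p = 0.1, two-sided, the smallest that 3 against 3 libraries allow).

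These 2 genes are transcribed away from each other with 346 bases between their starts, and the stretch between them is shown because both were lowered. The sequence is the 250 bases before the RefSeq start of COL4A5, chrX:108439588-108439837 on the plus strand of GRCh38.p14. Capitals mark the 121 bases (108439588 to 108439708) that also lie in the 250 bases before a RefSeq start of COL4A6, which reads them on the other strand.
COL4A5: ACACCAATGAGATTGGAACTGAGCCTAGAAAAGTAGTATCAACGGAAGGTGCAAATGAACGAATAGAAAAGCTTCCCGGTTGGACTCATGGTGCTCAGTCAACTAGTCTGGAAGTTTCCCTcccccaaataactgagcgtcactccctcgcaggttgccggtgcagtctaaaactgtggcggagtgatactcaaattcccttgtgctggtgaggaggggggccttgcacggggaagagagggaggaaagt
It held CCAAT on either strand 2 times, both in the shared stretch, and no GC box, TATAA or response element. COL4A3 and COL4A4 of the kidney filter, which also start head to head, were at 1.29 ± 0.222 against 1.29 ± 0.175 CPM and 0.739 ± 0.132 against 0.667 ± 0.121 CPM, and neither was called (adjusted p = 0.998 and 0.739). COL4A1 and COL4A2 are a head-to-head pair too. COL4A2 was at 0.762 ± 0.228 against 0.713 ± 0.198 CPM and was not called, and COL4A1 had at most 7 counts in a library.

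COL18A1, a basement membrane collagen whose cleaved end is endostatin (ENSG00000182871, chromosome 21, 45405137 to 45513720, plus strand), was at 190.4, 173 and 199.9 CPM in control and 144, 144 and 126 CPM in formononetin libraries. The groups did not overlap, and the log2 fold change was -0.44 ± 0.07 (adjusted p = 0.00609). SLC19A1 overlaps it on the opposite strand by 1401 exon bases, so its counts are uncertain if strand was not used.

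MATN3, an adaptor protein of cartilage matrix (ENSG00000132031, chromosome 2, 19992111 to 20012694, minus strand), had the largest fall among the 20 tested genes of 5 CPM or more. It was at 189, 203 and 213 CPM in control and 67.6, 66.3 and 65.6 CPM in formononetin libraries. The formononetin libraries were close together and far below every control. The mean was 33.0% of control, a log2 fold change of -1.60 ± 0.06 (adjusted p = 1.16e-05).

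Of 10 fibril-associated collagens, which attach to the surface of fibrils, 3 had enough counts to test, and all 3 were lowered. Each had a mean above 5 CPM, a level at which 12.5% of tested genes were lowered. COL9A3 (ENSG00000092758, chromosome 20, 62816244 to 62841159, plus strand) was at 139, 127 and 143 CPM in control and 95.1, 85.2 and 79.0 CPM in formononetin libraries (-0.65 ± 0.08, adjusted p = 0.00167). COL9A2, its partner in the type IX trimer of cartilage (ENSG00000049089, chromosome 1, 40300487 to 40317813, minus strand), was at 22.0, 20.9 and 21.7 against 17.6, 15.3 and 16.5 CPM (-0.38 ± 0.08, adjusted p = 0.0136). The third chain of that trimer, COL9A1, had no counts in any library. COL16A1, a minor collagen of skin and cartilage (ENSG00000084636, chromosome 1, 31652247 to 31704319, minus strand), was at 47.0, 40.9 and 48.8 against 28.7, 26.1 and 24.2 CPM (-0.79 ± 0.09, adjusted p = 0.00147). COL9A3, COL9A2 and COL16A1 did not overlap between groups, and 18.7% of all genes tested lay wholly below control.

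Fibrillar collagen signal was mostly COL27A1, a chain of developing cartilage, which made up 97.1 ± 0.364% in control and 98.2 ± 0.0902% in formononetin libraries per kilobase (n = 3). COL27A1 (ENSG00000196739, chromosome 9, 114155560 to 114312511, plus strand) was at 718, 668 and 699 CPM in control and 606, 584 and 535 CPM in formononetin libraries (-0.27 ± 0.06, adjusted p = 0.0137). After FN1 it had the highest mean CPM of the set in both groups. COL2A1, the main collagen of cartilage (ENSG00000139219, chromosome 12, 47972965 to 48004554, minus strand), was at 6.35, 3.94 and 3.69 against 2.13, 1.78 and 1.81 CPM (-1.28 ± 0.23, adjusted p = 0.00893). Control replicate 1 was the highest, and without it COL2A1 was still called (adjusted p = 0.0104). COL11A2, which joins COL2A1 in cartilage fibrils (ENSG00000204248, chromosome 6, 33162681 to 33192499, minus strand), was at 2.34, 2.40 and 2.27 against 0.571, 0.76 and 0.419 CPM. It had the lowest log2 fold change of the tested genes, -2.01 ± 0.23 (adjusted p = 0.0014), from 71, 86 and 77 counts in control and 23, 29 and 19 in formononetin libraries. COL5A1, COL5A2 and COL24A1 lay under 3 CPM, overlapped between groups and were not called, with log2 fold changes of 0.19 ± 0.17, -0.39 ± 0.19 and 0.10 ± 0.31.

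The remaining tested collagens were not called. COL7A1, which forms the anchoring fibrils of skin, was at 37.2, 34.0 and 34.0 CPM in control and 40.6, 38.9 and 34.6 CPM in formononetin libraries (0.12 ± 0.08, adjusted p = 0.353). COL6A1, a chain of beaded filaments, was at 20.5, 16.8 and 20.7 against 19.3, 17.7 and 17.3 CPM (-0.09 ± 0.10, adjusted p = 0.575). COL10A1, the collagen of hypertrophic cartilage, was at 7.83, 7.38 and 8.26 against 7.87, 7.81 and 8.90 CPM (0.07 ± 0.11, adjusted p = 0.711). These 3 genes overlapped between groups. COL6A2, COL6A6, COL8A2 and COL17A1 had means under 2 CPM and log2 fold changes of 0.48 ± 0.39, -0.11 ± 0.31, -0.43 ± 0.23 and -0.11 ± 0.23. COL8A2, a collagen of the corneal basement membrane, was lower in every formononetin library without being called (adjusted p = 0.233).

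**Figure D3:**
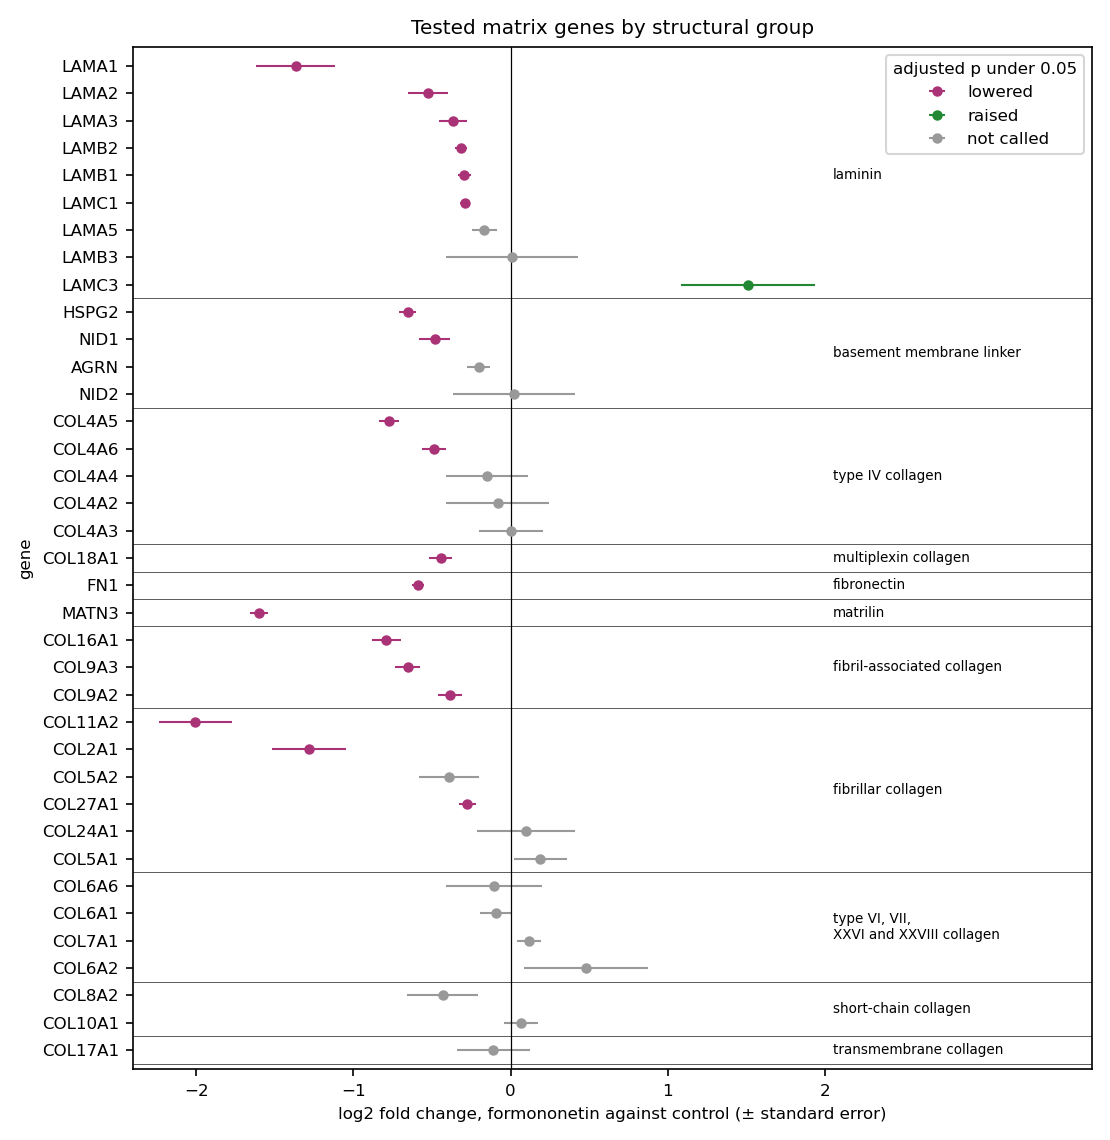
Log2 fold change of formononetin against control with its standard error for the 37 tested matrix genes, grouped by structure, with colour for the call at adjusted p under 0.05. The 19 lowered genes run from -2.01 (COL11A2) to -0.27 (COL27A1), and the raised LAMC3 has a standard error of 0.43.

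The other 25 genes had too few counts to test. No counts were found in any library for 10 of them, among them COL1A2, COL3A1, COL9A1, COL11A1, COL14A1, COL19A1, COL22A1 and COL25A1. A count of 0 allows up to 3 counts per library, or 0.0662 to 0.0987 CPM, counting error only. The other 15, COL1A1, COL4A1, COL5A3, COL6A3, COL8A1, COL12A1, COL13A1, COL15A1, COL20A1, COL21A1, COL23A1, COL26A1, COL28A1, LAMA4 and LAMB4, had 1 to 34 counts over all 6 libraries. COL1A1, a chain of the collagen that dominates liver scars, had 3, 16 and 10 counts in control and 0, 5 and 0 in formononetin libraries.

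The libraries were checked for markers of stromal cells, which make much of the matrix in tissue. Of 9 fibroblast and stellate cell markers DCN, LUM and DES were at 0 in every library, as were COL1A2 and COL3A1. The summed level of the 9 was 85.0 to 90.4 CPM in control and 45.8 to 51.7 CPM in formononetin libraries, mostly ACTA2, an actin of contractile cells, at 65.5 ± 1.92 against 37.9 ± 1.75 CPM. PDGFRB, a growth factor receptor of pericytes and stellate cells, was at 13.3 ± 1.11 against 4.04 ± 0.361 CPM (-1.72 ± 0.12, adjusted p = 0.000229). THY1 was at 7.10 ± 0.381 against 4.89 ± 1.25 CPM, and RGS5 at 0.851 ± 0.157 against 1.25 ± 0.820 CPM. Neither THY1 nor RGS5 was called (adjusted p = 0.0896 and 0.527), and PDGFRA and LRAT had too few counts to test. Hepatocyte markers were abundant in all libraries, at a summed 44169 to 45115 CPM in control and 36961 to 37816 CPM in formononetin libraries. Of these 8 markers 6 were lowered, HNF4A was raised and APOA1 was not called. Among all tested genes of 5 CPM or more 12.5% were lowered and 20.2% raised. Endothelial markers summed to 22.6 to 26.3 against 24.7 to 28.7 CPM, with 1 of 6 at 0, and leukocyte markers to 3.83 to 5.82 against 7.54 to 9.18 CPM, with 1 of 5 at 0. The endothelial sum was mostly PECAM1, at 23.2 ± 1.57 against 25.8 ± 2.39 CPM and not called. Most of the leukocyte sum was CD68, at 3.35 ± 0.832 against 6.73 ± 1.31 CPM and raised (adjusted p = 0.0204). CD14 and CSF1R were not called (adjusted p = 0.423 and 0.970), and CD163, with at most 9 counts in a library, was not tested. The part of these markers in the lower matrix transcripts was not tested.

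Of 25 tested genes that make, cross-link and export collagen, 5 were raised and 3 lowered, with a median log2 fold change of 0.02. Among all genes tested 12.0% were raised and 8.71% lowered, and neither count of this list stood far from those shares. P4HB, a protein disulfide isomerase and the beta subunit of prolyl hydroxylase, was at 765, 794 and 818 CPM in control and 1187, 1012 and 978 CPM in formononetin libraries (0.42 ± 0.07, adjusted p = 0.00809). KLHL12, an adaptor for the large vesicles that export procollagen, was at 27.4 ± 2.46 against 35.7 ± 1.14 CPM (0.38 ± 0.08, adjusted p = 0.0143), a call lost without formononetin replicate 3 (adjusted p = 0.0548). LOXL4, a lysyl oxidase that cross-links collagen, fell from 80.1 ± 5.49 to 37.9 ± 1.44 CPM (-1.08 ± 0.07, adjusted p = 0.000167). PLOD2, a lysyl hydroxylase that shapes those cross-links, fell from 228 ± 8.58 to 140.4 ± 2.97 CPM (-0.70 ± 0.04, adjusted p = 0.000195). Raised genes of this list numbered 3 when control replicate 2 or formononetin replicate 1 or 2 was left out.

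Of 21 tested matrix receptors 4 were raised and 3 lowered (median -0.02), counts not far from the 12.0% raised and 8.71% lowered among all genes. BCAM, a receptor for laminins that hold LAMA5, fell from 205 ± 11.4 to 107 ± 5.43 CPM (-0.93 ± 0.06, adjusted p = 0.0002). ITGB4, the beta chain of the laminin receptor of hemidesmosomes, was at 13.4 ± 1.26 against 9.86 ± 0.844 CPM (-0.44 ± 0.11, adjusted p = 0.0287). SDC1, a cell surface heparan sulfate proteoglycan, rose from 112 ± 10.3 to 156 ± 13.0 CPM (0.48 ± 0.09, adjusted p = 0.00795), and ITGA1, a collagen receptor chain, was at 82.6 ± 4.14 against 94.5 ± 3.12 CPM (0.19 ± 0.05, adjusted p = 0.0447). The call of ITGA1 ended when any library was left out (adjusted p 0.0561 to 0.136), and that of ITGB4 when any library except formononetin replicate 1 was (adjusted p of at most 0.0849). Raised receptors numbered 1 when control replicate 1 or 2 or any formononetin library was left out, and lowered receptors 1 when control replicate 2 or 3 or formononetin replicate 2 or 3 was.

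Of 17 tested matrix proteases and inhibitors 3 were raised and 1 was lowered (median -0.07), against 12.0% and 8.71% of all genes, so these counts were near the background too. The lowered gene, MMP25, had 22, 22 and 29 counts in control and 12, 14 and 8 in formononetin libraries. On the formononetin libraries alone MMP25 would not have passed the low-count filter. TIMP1, an inhibitor of metalloproteinases, was at 8.55, 8.49 and 11.9 CPM in control and 13.7, 16.3 and 15.0 CPM in formononetin libraries (0.64 ± 0.15, adjusted p = 0.0238). That call ended when control replicate 1 or 2 or formononetin replicate 2 or 3 was left out (adjusted p of at most 0.0772). Raised genes of this list then numbered 1 without control 1, control 3 or formononetin 2, and 0 without control 2 or formononetin 3. Lowered genes numbered 0 without control 1, control 2, formononetin 1 or formononetin 3, and 5 with upper quartile scaling.

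In the list of other matrix and matricellular genes 13 of 31 tested genes were lowered and 1 was raised (median -0.36), where 8.71% of all genes tested were lowered and 12.0% raised. The 13 include FBN2, which passed the low-count filter only through the control libraries, where it is high. FBN2 had 14, 11 and 12 counts in control and 4, 0 and 0 in formononetin libraries. THBS1, the matricellular protein thrombospondin 1, was at 739, 715 and 699.8 CPM in control and 411, 399 and 396 CPM in formononetin libraries (-0.84 ± 0.04, adjusted p = 4.68e-05). CCN1, a matricellular ligand of integrins, fell from 32.0 ± 2.97 to 17.6 ± 1.84 CPM (-0.87 ± 0.10, adjusted p = 0.00163). EMILIN1, a glycoprotein of elastic fibres, was the raised gene, at 28.4 ± 1.96 against 37.5 ± 2.75 CPM (0.40 ± 0.08, adjusted p = 0.0138). With 1 library left out, 9 to 12 genes of this list were lowered, and 9 to 14 under the other settings.

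Among genes of TGF-beta signalling, a pathway known to raise collagen and fibronectin transcription, 5 of 21 tested were lowered and 2 raised (median -0.21), beside 8.71% and 12.0% of all genes. The raised count was about the background share. LTBP1, which was lowered (-1.27 ± 0.34, adjusted p = 0.0375), belongs both to this list and to the list of other matrix genes. TGFBR2, the type II receptor, was at 721, 764 and 752 CPM in control and 543, 542 and 545 CPM in formononetin libraries (-0.46 ± 0.04, adjusted p = 0.000423). TGIF1, a repressor of SMAD factors, was at 56.5 ± 4.68 against 41.6 ± 5.36 CPM (-0.44 ± 0.11, adjusted p = 0.0247). Its call ended when control replicate 2 or 3 or formononetin replicate 1 or 3 was left out (adjusted p of at most 0.0803). ID3, an inhibitor of DNA binding, rose from 21.6 ± 1.76 to 31.3 ± 1.31 CPM (0.53 ± 0.08, adjusted p = 0.00404). Lowered genes of this list numbered 3 without control 2, control 3, formononetin 1 or formononetin 3, and 8 with upper quartile scaling.

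**Figure D4:**
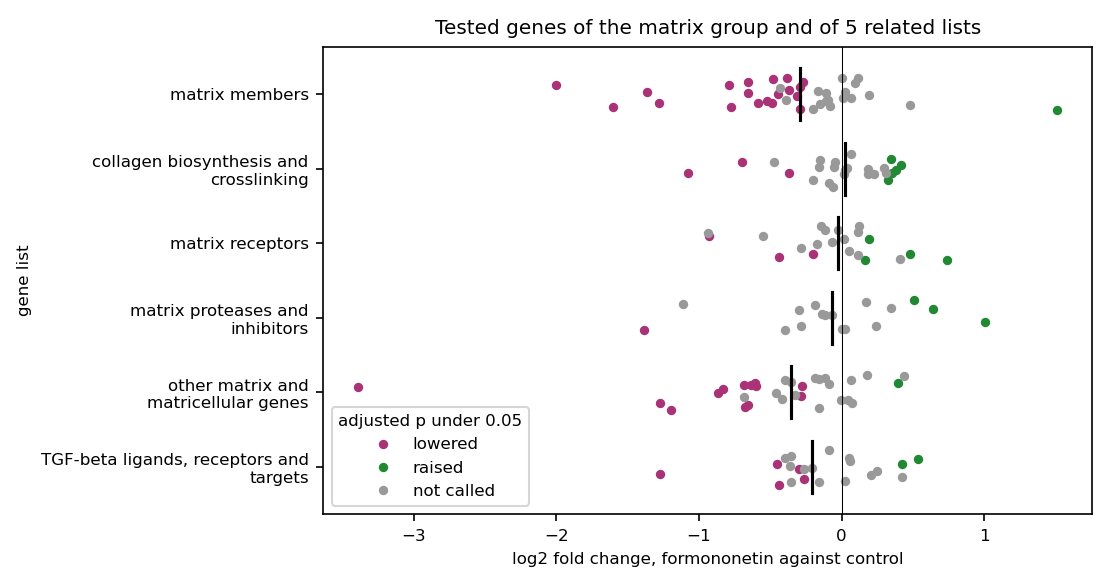
Log2 fold change of each tested gene in the matrix group and in the 5 related lists, with colour for the call at adjusted p under 0.05 and a black bar at each list's median. Medians are -0.29 for the matrix group, -0.36 for other matrix genes and between -0.21 and 0.02 for the other lists.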

How the data were processed

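RNA from HepG2 cells was made into stranded mRNA libraries, as the labels' protocols state. The authors deposited raw counts per gene. GRCh38, STAR 2.5.3a and StringTie 1.3.1c are named, without roles, per the submitters' processing notes. How reads were counted, whether strand was used and which gene models served: not given in the sources used here. Genes that overlap on either strand are therefore uncertain.

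Of 62729 rows, 2165 are assembled loci without a gene name (3.82 to 5.62% of counts), left out of library sizes and tests. Symbols were matched for 60295 identifiers, and coordinates, gene types and exon lengths come from GENCODE 29. Genes kept by filterByExpr were tested with edgeR 4.0.16 in R 4.3.3 (TMM scaling, quasi-likelihood F test, group as the only term, two-sided, Benjamini-Hochberg adjustment, threshold 0.05). Standard errors were taken as log2 fold change over the root of F. The method was checked on simulated data. CPM per kilobase divides by the exon length of all transcripts together.

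The members, lists and tests were chosen with earlier results of these data known. Every tested member is named, and some items are not reported here. Of each related list, the 2 largest called changes per direction are named, among genes whose average log2 CPM reaches 3. FBN2 and MMP25, below that level, are named for their low counts, and LTBP1, also below it, because lists share it. Alternatives were DESeq2 1.42.0, limma 3.58.1 (voom), other scalings and filters, assembled loci kept, mitochondrial and the 10 largest genes left out, a replicate block, each library left out and, added after the data were seen, adjustment for GC content and transcript length. Nothing in the labels says that replicates were separate cultures, so p-values cover the spread among these libraries only, and that may be technical. Figures were drawn with matplotlib 3.10.9.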

Additional observations from a re-analysis of the deposited data

How the results depend on the processing

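Over the 18 alternatives, 17 of the 19 lowered matrix genes stayed lowered and called wherever they were tested, the exceptions being LAMA2 and LAMA3. FN1 gave no value in the setting without the 10 largest genes. Lowered matrix genes numbered 17 to 20, with 17 to 19 when 1 library was left out, and 17 with the replicate block. Raised matrix genes numbered 0 under DESeq2 (where LAMC3 had no adjusted p), limma voom, upper quartile scaling, no low-count filter, the filter of 1 CPM in 3 libraries (which removed LAMC3) and the replicate block, and 0 to 0 when 1 library was left out. The cause was not tested in the other settings. Together, with each gene counted once, the related lists held 15 raised and 24 lowered genes. These counts were 9 and 35 with upper quartile scaling, and 7 to 13 and 17 to 23 with 1 library left out. Over all genes 2659 were raised and 1937 lowered, against 1703 to 2189 and 1272 to 1478 with 1 library left out. Same-numbered libraries did not deviate together (correlations of -0.0021, 0.0092 and -0.022 across genes), and differently numbered ones gave -0.014 to 0.016. No pairing by replicate number was seen. With 3 libraries per group and many scarce genes, these correlations cannot exclude a shared culture or batch.

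Log2 fold changes changed sign for 8 genes, none of them called, and no changed value passed the threshold. With 1 library left out, the ranges were -0.0047 to 0.11 for COL10A1, -0.24 to 0.059 for COL17A1, -0.024 to 0.35 for COL24A1, -0.29 to 0.14 for COL4A2, -0.12 to 0.15 for COL4A3, -0.37 to 0.078 for COL6A6, -0.39 to 0.32 for LAMB3 and -0.21 to 0.34 for NID2. Upper quartile scaling gave -0.012 for COL10A1, -0.078 for COL4A3, -0.070 for LAMB3 and -0.056 for NID2. LAMB3 was at -0.074 with limma voom and -0.036 with the replicate block. COL4A3 was at -0.014 with the filter of 1 CPM, -0.0034 with DESeq2, -0.0035 with RLE scaling, -0.00063 with the GC and length adjustment and -0.0048 without the mitochondrial and largest genes. The cause was not tested. Depth limits the genes under 1 CPM, where the standard error reached 0.43.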

Other observations

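SOX9, a transcription factor of both cartilage and bile duct, was measured as a marker of bile duct cells. It was at 378, 347 and 382 CPM in control and 314, 308 and 309 CPM in formononetin libraries, without overlap (-0.25 ± 0.05, adjusted p = 0.00965, edgeR). Of the 5 bile duct markers, SOX9 and EPCAM were lowered, KRT19 was not called (107 ± 2.62 against 103 ± 7.42 CPM), KRT7 had at most 7 counts in a library and CFTR had none. Their summed level was 543 to 577 CPM in control and 481 to 496 CPM in formononetin libraries. SOX9, EPCAM and KRT19 each lay above 5 CPM, a level at which 12.5% of all tested genes were lowered.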
